A study of Homo sapiens with 14 samples.

Results

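The first step of pancreatic differentiation was examined by comparing a library of definitive endoderm (DE) with a library of the human pluripotent stem cells (hPSCs) it was made from. These were 2 of the 14 RNA sequencing libraries of the series. They were chosen by their titles, and both belong to the batch labelled batch1. Each group had 1 library, so no difference between them has a replicate check and no test was possible.

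Both libraries came from MEL1, a human embryonic stem cell line, and both were total RNA. The study's methods describe its MEL1 cells as INS GFP/W, a reporter line that carries GFP at the insulin gene. The hPSC library is labelled as the undifferentiated line, which was kept with CF1 feeder cells in a medium holding serum replacement and bFGF. For the DE library the cells were brought into single-cell suspension and formed aggregates on a shaker with activin A and heregulin B. They were then given activin A together with CHIR99021, followed by activin A alone, in a low-serum medium. CHIR99021 inhibits the kinase GSK3 and so activates WNT signalling. The schedule goes on with KGF and A83-01, and the day on which DE was harvested is not given in the sources used here. Stage, medium, feeder cells and culture as aggregates differ between the libraries and cannot be told apart. In bulk RNA, fewer cells of a type and less RNA of a gene per cell cannot be told apart either.

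Definitive endoderm is the germ layer that gives rise to the pancreas, the liver, the lungs and the lining of the gut. In the embryo, epiblast cells that receive Nodal and WNT signals enter the primitive streak, pass through a mesendoderm state marked by EOMES, MIXL1 and GSC, and adopt an endoderm programme led by SOX17, FOXA2 and the GATA factors. Activin A acts through the same receptors as Nodal and replaces it in culture. Pluripotency itself rests on a circuit of POU5F1 (OCT4), SOX2 and NANOG.

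The values are TPM, in which each gene is scaled to its transcript length and to the whole library. The listed values summed to 923744 TPM in hPSC and 914506 TPM in DE. At least 1 TPM was reached by 16365 genes in hPSC and by 15868 genes in DE. Ribosomal protein genes took 21.1% of the listed TPM in hPSC and 21.8% in DE. In all 14 libraries the 37 mitochondrial genes are listed at 0. An exact 0 may therefore stand for a failed estimate, and it is given below as listed at 0 with no fold change. The counts, rankings and list medians below nevertheless take it as a value of 0. TPM values keep no read counts, and the sequencing depth behind them is unknown.

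The markers followed the labels. SOX17 (ENSG00000164736, chr8:54457935-54460892, plus strand; build GRCh38 here and below), a transcription factor that defines DE, went from a listed 0 in hPSC to 1139.8 TPM in DE. CXCR4 (ENSG00000121966, chr2:136114349-136119177, minus strand), the chemokine receptor used to sort DE cells, was at 2.43 TPM in hPSC and 105 TPM in DE. POU5F1 (ENSG00000204531, chr6:31164337-31180731, minus strand), the central factor of pluripotency, was at 3401 TPM in hPSC and 389 TPM in DE. SOX17 and CXCR4 were thus high in DE and POU5F1 in hPSC. In PP2, the pancreatic progenitor library of the same batch, POU5F1 was at 0.389 TPM.

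A gene entered the comparison when it had 1 TPM or more in either library, which 17807 of the 60624 listed genes did. It was counted as higher or lower when log2(TPM + 1) differed by at least 2, which is 4-fold on that scale, and the higher library had at least 10 TPM. By this rule 308 genes (1.73%) were higher in DE and 502 genes (2.82%) were lower. On this scale the change of a gene with few TPM looks smaller than it is. Of the genes that were higher in DE, 235 were protein-coding and 38 were long noncoding RNAs, and 111 had under 1 TPM in hPSC. Of these 111 genes, 20 were listed at 0 in hPSC. Of the genes that were lower, 415 were protein-coding and 55 were long noncoding RNAs, and 124 had under 1 TPM in DE. Of these 124 genes, 9 were listed at 0 in DE. The lower genes made up 62.0% of the 810 calls.

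Most genes did not move far. The median difference over all 17807 genes was −0.04 (quartiles −0.63 and 0.47), and 73.1% of the genes lay within 2-fold. Across genes, which are not independent, Pearson's r of log2(TPM + 1) was 0.864 and Spearman's rho was 0.846. The genes higher in DE took 0.334% of the listed TPM in hPSC and 4.04% in DE. The genes lower in DE took 5.29% in hPSC and 0.644% in DE. Just inside the threshold lay PELI1 with a difference of 2.004 and CROCC with −2.0004, and just outside it lay INPP4A with 1.998 and CNN1 with −1.999.

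**Figure D1:**
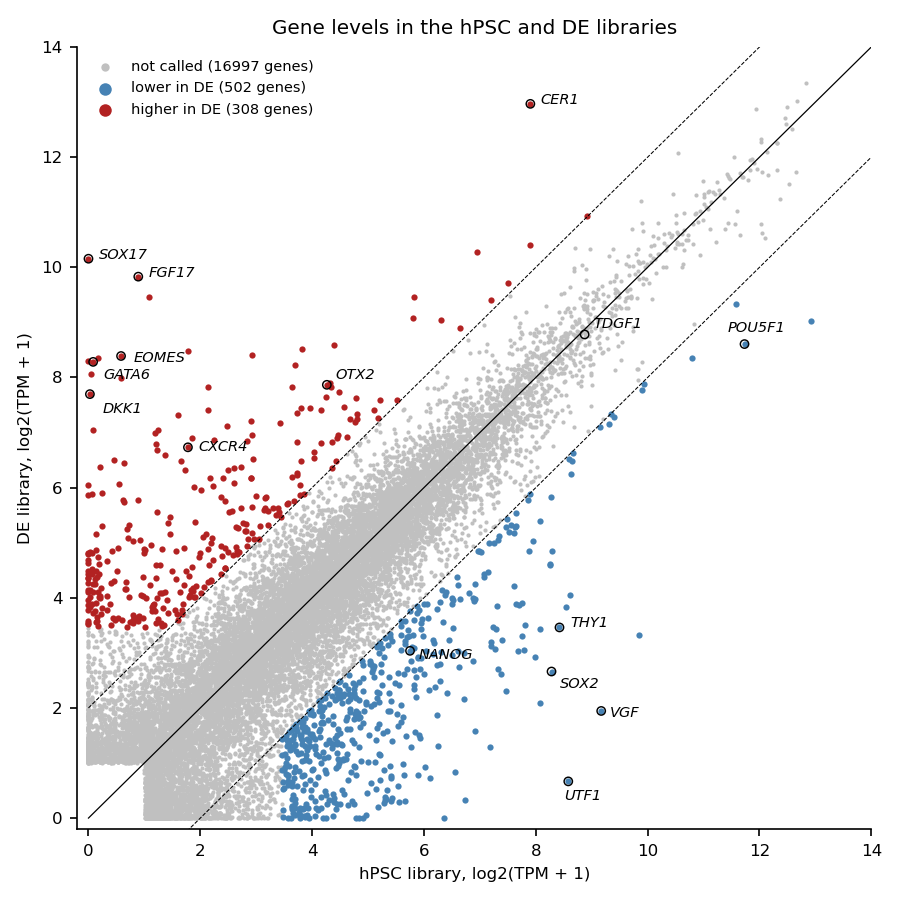
Level of each of 17807 genes in the hPSC library (horizontal) and the DE library (vertical), both as log2(TPM + 1). Red points are the 308 genes higher in DE, blue points the 502 genes lower in DE and grey points the rest; the solid line marks equal levels and the dashed lines 4-fold differences. SOX17, FGF17 and EOMES lie at the left edge, CER1 at the top, and UTF1, VGF and SOX2 at the lower right.

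A measure of how often 2 libraries of 1 group differ this much comes from other batches and cell states. Between the 2 libraries of each of the 5 replicated groups, the same thresholds were passed by 0.171% of genes in ePP-P9, 0.197% in ePP-P21, 0.253% in ePP-β, 0.732% in DMSO and 1.85% in I-BET151. ePP are expandable pancreatic progenitors at passages 9 and 21, ePP-β are the β-like cells made from them, and DMSO and I-BET151 are progenitors kept with solvent or with a BET inhibitor. Between hPSC and DE the share was 4.55%. The share between DE and hPSC was above each of these, and the I-BET151 pair, with 314 genes past the thresholds, shows how far libraries of 1 group could differ. On other measures that pair came closer. The median absolute log2 difference was 0.543 between hPSC and DE, 0.521 in the I-BET151 pair and between 0.147 and 0.438 in the others. Genes 2-fold or more apart were 26.9% between hPSC and DE and 21.6% in the I-BET151 pair, and Pearson's r was 0.864 and 0.919.

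**Figure D2:**
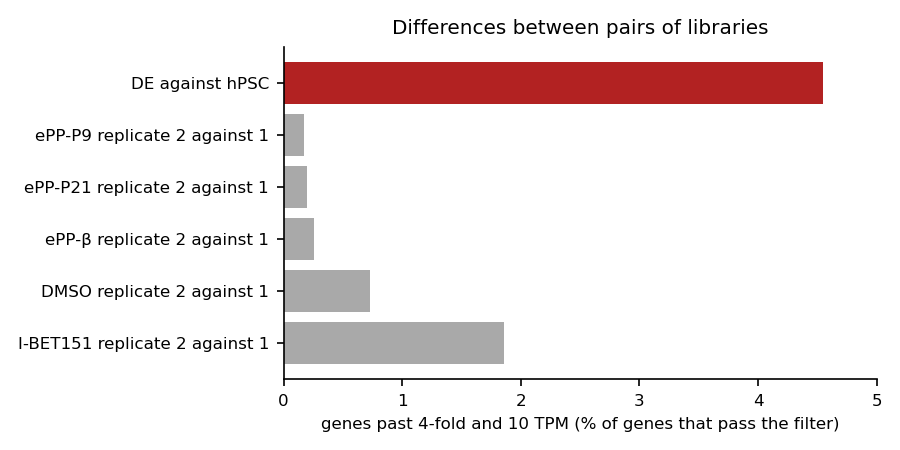
Share of genes (horizontal, % of the genes that pass the filter) that differed by 4-fold or more with at least 10 TPM in the higher library, for DE against hPSC (red) and for the 2 libraries of each replicated group (grey). The bar for DE against hPSC reaches 4.55%, and the grey bars run from 0.171% to 1.85%.

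The pluripotency genes did not all move alike. All 30 listed genes passed the filter, with 14 lower in DE, 1 higher and 15 counted as neither, beside 2.82% lower and 1.73% higher among all genes. The same shares are the background for the counts of every list below. The median difference of the list was −1.68, and its summed level was 8312 TPM in hPSC and 3141 TPM in DE.

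The deepest fall was that of UTF1 (ENSG00000171794, chr10:133230217-133231558, plus strand), a chromatin-associated factor of undifferentiated cells, at 382 TPM in hPSC and 0.587 TPM in DE, a difference of −7.91. SOX2 (ENSG00000181449, chr3:181711925-181714436, plus strand) was at 310.0 TPM in hPSC and 5.32 TPM in DE, a difference of −5.62. NANOG was at 52.8 TPM in hPSC and 7.21 TPM in DE, a difference of −2.71, and POU5F1 differed by −3.13. The 3 members of the core circuit were therefore all lower in DE, and SOX2 had the widest difference of them. POU5F1 and NANOG have processed pseudogenes, so reads could be split between copies and their levels are uncertain to that extent.

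PRDM14, a repressor that guards the pluripotent state, was at 50.3 TPM in hPSC and 1.82 TPM in DE. FOXD3, a forkhead factor of the epiblast, was at 37.4 TPM in hPSC and 1.93 TPM in DE. USP44, a deubiquitinase, was at 97.6 TPM in hPSC and 5.67 TPM in DE. These regulators lost most of their level, as did DPPA2 (20.4 TPM in hPSC and 0.879 TPM in DE), whose partner DPPA4 kept more of it (395 TPM in hPSC and 74.8 TPM in DE). DNMT3B, a de novo DNA methyltransferase that is abundant in embryonic stem cells, was at 568 TPM in hPSC and 136 TPM in DE, a difference of −2.05. However, DNMT3B also differed by up to 1.97 on the log2 scale between 2 libraries of another group. ZSCAN10, TERF1, FGF2 and the surface protein CD9 were the other members counted as lower, by between 2.08 and 2.39 on the log2 scale. Of the 30 members 23 were below their hPSC level and 7 above it, so members not counted as lower fell too. GDF3, at 17.4 TPM in hPSC and 8.93 TPM in DE, was 1 of these.

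A second set of pluripotency genes differed little. LIN28A, an RNA-binding protein that blocks let-7 maturation, was at 459.6 TPM in hPSC and 625 TPM in DE. TDGF1 (Cripto), the co-receptor of Nodal, was at 468 TPM in hPSC and 439 TPM in DE, and L1TD1 was at 185 TPM in hPSC and 153 TPM in DE. SALL4 was at 61.5 TPM in hPSC and 73.3 TPM in DE, and LIN28B at 31.7 TPM in hPSC and 35.3 TPM in DE. All of these differed by less than 0.5 on the log2 scale. TDGF1 has transcribed pseudogenes, so its level is uncertain to that extent. In PP2, TDGF1 was at 0.622 TPM whereas LIN28A was at 276 TPM, so the genes that were level between hPSC and DE parted later.

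Another set had more transcript in DE than in hPSC. OTX2, a homeobox factor shared by the epiblast, the anterior endoderm and the forebrain, was at 18.2 TPM in hPSC and 232 TPM in DE, and it was the member counted as higher. ZIC2 was at 97.6 TPM in hPSC and 179 TPM in DE and VRTN at 100.1 TPM in hPSC and 193 TPM in DE, both short of 4-fold. OTX2 and ZIC2 had under 2 TPM in PP2.

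Genes of the naive state, which is earlier than the state of ordinary embryonic stem cell cultures, formed a list of 9, of which 6 passed the filter. The median difference was −1.36, and 5 of the 6 were below their hPSC level. TFAP2C was counted as lower (23.8 TPM in hPSC and 4.07 TPM in DE). KLF5 was the 1 above its hPSC level, at 6.34 TPM in hPSC and 11.4 TPM in DE.

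Genes of the primitive streak and mesendoderm moved the other way. Of 15 listed genes 13 passed the filter, 7 were higher in DE and none was lower, with a median difference of 2.78. FGF17 (ENSG00000158815, chr8:22042398-22048809, plus strand), a growth factor of the FGF8 family, showed the widest difference of the list, 8.94, with 0.854 TPM in hPSC and 909 TPM in DE. Its level in DE was 335 times the next highest of the other 13 libraries on the TPM + 1 scale.

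The T-box factor EOMES (ENSG00000163508, chr3:27715949-27722711, minus strand), which drives the choice of endoderm, was at 0.497 TPM in hPSC and 334 TPM in DE. MIXL1 (ENSG00000185155, chr1:226223618-226227060, plus strand), a homeobox target of Nodal signalling, was at 2.45 TPM in hPSC and 356 TPM in DE. GSC (ENSG00000133937, chr14:94768223-94770113, minus strand), the homeobox gene of the organizer, was at 0.5 TPM in hPSC and 255 TPM in DE, and LHX1, another organizer factor, was at 0.131 TPM in hPSC and 327 TPM in DE. These 4 factors had at most 2.45 TPM in hPSC and at least 255 TPM in DE, and in PP2 the highest of them was LHX1 at 6.64 TPM. SP5, a direct WNT target, was at 2.16 TPM in hPSC and 88.4 TPM in DE, and FGF8 was at 7.89 TPM in hPSC and 48.5 TPM in DE.

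TBXT (brachyury), the T-box factor of the streak and early mesoderm, was at 0.173 TPM in hPSC and 7.04 TPM in DE. Its difference of 2.78 passed 4-fold, but its level in DE was under the 10 TPM that the rule asks for. EOMES was thus far above TBXT in the DE library, on the per-length TPM scale. WNT3 was at 16.5 TPM in hPSC and 26.9 TPM in DE, and FOXH1, the DNA-binding partner of SMAD2 and SMAD3, was at 111 TPM in hPSC and 71.9 TPM in DE. MESP1, TBX6 and EVX1 stayed under 5 TPM in both libraries.

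Most of the definitive endoderm list rose. Of 20 listed genes 19 passed the filter, 13 were higher in DE and none was lower, with a median difference of 3.87. SOX17 and CXCR4 were used to check the label and are 2 of the 13.

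Among the GATA and forkhead factors, which open endoderm chromatin, GATA6, GATA4 and FOXA2 rose. GATA6 (ENSG00000141448, chr18:22169589-22202528, plus strand) was at 0.0594 TPM in hPSC and 310.4 TPM in DE, GATA4 (ENSG00000136574, chr8:11676959-11760002, plus strand) at 0.0627 TPM in hPSC and 131 TPM in DE and FOXA2 (ENSG00000125798, chr20:22580998-22585455, minus strand) at 0.153 TPM in hPSC and 82.4 TPM in DE. Their differences were 8.20, 6.95 and 6.18. FOXA1 was at 0.026 TPM in hPSC and 0.47 TPM in DE and did not pass the filter, and in PP2 it was at 173 TPM. FOXA3 was at 29.8 TPM in hPSC and 21.2 TPM in DE. FOXA2 was therefore the FOXA gene counted as higher.

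CER1 (ENSG00000147869, chr9:14719724-14722733, minus strand), a secreted antagonist of Nodal, BMP and WNT made by anterior endoderm, reached the highest level of all genes named here in either library, with 238 TPM in hPSC and 8009 TPM in DE. It was already abundant in hPSC, unlike the other genes of the list that rose, and it was at 0.587 TPM in PP2. HHEX, a homeobox factor of anterior endoderm, was at 1.38 TPM in hPSC and 132 TPM in DE and was higher again in PP2 at 476 TPM. KIT, the receptor often used beside CXCR4 in sorting, was at 1.75 TPM in hPSC and 43 TPM in DE. PRDM1 (BLIMP1) was at 1.01 TPM in hPSC and 28.3 TPM in DE, and CD177 was at 4.4 TPM in hPSC and 22.4 TPM in DE. TRPA1, FLRT3 and FRZB were also higher, with 12.1, 32.1 and 13.8 TPM in DE and under 2 TPM in hPSC.

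Among the other members, KRT19 was at 134 TPM in hPSC and 494 TPM in DE, short of 4-fold. EPCAM, an epithelial adhesion protein found on both cell types, was at 409 TPM in hPSC and 136 TPM in DE, and CLDN6 was at 568 TPM in hPSC and 371 TPM in DE.

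Promoters of 10 of the genes higher in DE, chosen with these results known, were read for motifs, and 5 held a match. The sequences of EOMES, MIXL1, DKK1 and CXCR4 are shown for their matches, that of GSC, with a TATA match, is not printed, and that of GATA6 stands for the 5 with none, which also include CER1, OTX2, CYP26A1 and KIT. Each is the 250 bases before the start in RefSeq (GRCh38.p14), read 5′ to 3′ on the strand of the gene, with motif matches in capitals. Both strands were searched for 6 motifs: AGATAA for GATA factors, TGTTTAC for forkhead factors, ATGCAAAT for the octamer of POU factors, TGTGGATT for FOXH1, TCACACCT for T-box factors and TATAAA for the TATA box.
EOMES, chr3:27722324-27722573, minus strand: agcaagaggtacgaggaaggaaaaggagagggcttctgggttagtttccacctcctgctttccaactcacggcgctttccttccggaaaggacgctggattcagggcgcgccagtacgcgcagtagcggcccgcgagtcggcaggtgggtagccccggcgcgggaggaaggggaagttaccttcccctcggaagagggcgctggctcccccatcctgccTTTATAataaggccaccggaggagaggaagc
MIXL1, chr1:226223414-226223663, plus strand: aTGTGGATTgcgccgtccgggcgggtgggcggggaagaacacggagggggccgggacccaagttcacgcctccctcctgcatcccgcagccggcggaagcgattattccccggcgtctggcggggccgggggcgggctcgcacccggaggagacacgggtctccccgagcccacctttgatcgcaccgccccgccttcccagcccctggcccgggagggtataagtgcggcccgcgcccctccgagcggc
DKK1, chr10:52314031-52314280, plus strand: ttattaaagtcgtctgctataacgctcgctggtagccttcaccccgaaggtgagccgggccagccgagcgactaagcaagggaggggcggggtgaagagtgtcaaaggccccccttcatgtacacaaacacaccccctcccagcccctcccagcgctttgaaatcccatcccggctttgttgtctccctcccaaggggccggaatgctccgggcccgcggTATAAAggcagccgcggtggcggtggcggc
CXCR4, chr2:136118150-136118399, minus strand: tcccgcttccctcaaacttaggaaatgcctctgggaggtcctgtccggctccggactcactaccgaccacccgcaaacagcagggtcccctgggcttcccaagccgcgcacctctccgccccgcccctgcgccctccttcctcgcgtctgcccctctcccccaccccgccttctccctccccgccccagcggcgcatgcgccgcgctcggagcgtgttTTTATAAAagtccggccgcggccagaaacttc
GATA6, chr18:22169339-22169588, plus strand: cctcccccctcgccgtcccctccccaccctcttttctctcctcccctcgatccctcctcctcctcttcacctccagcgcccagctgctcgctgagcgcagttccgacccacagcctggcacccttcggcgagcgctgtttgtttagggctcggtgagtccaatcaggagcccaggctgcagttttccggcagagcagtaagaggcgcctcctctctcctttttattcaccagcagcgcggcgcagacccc
The capitals in EOMES are the TATA motif on the other strand, with its first printed base at position −31 from the start. In DKK1 the TATA motif begins at −30. In CXCR4 the 2 strands give overlapping matches that begin at −32 and −30. In MIXL1 the capitals are the FOXH1 motif at −249. Over all 27305 RefSeq promoters of this length, 11.1% held the TATA motif and 0.681% held the FOXH1 motif. A match describes the letters and is not shown here to be a binding site.

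**Figure D3:**
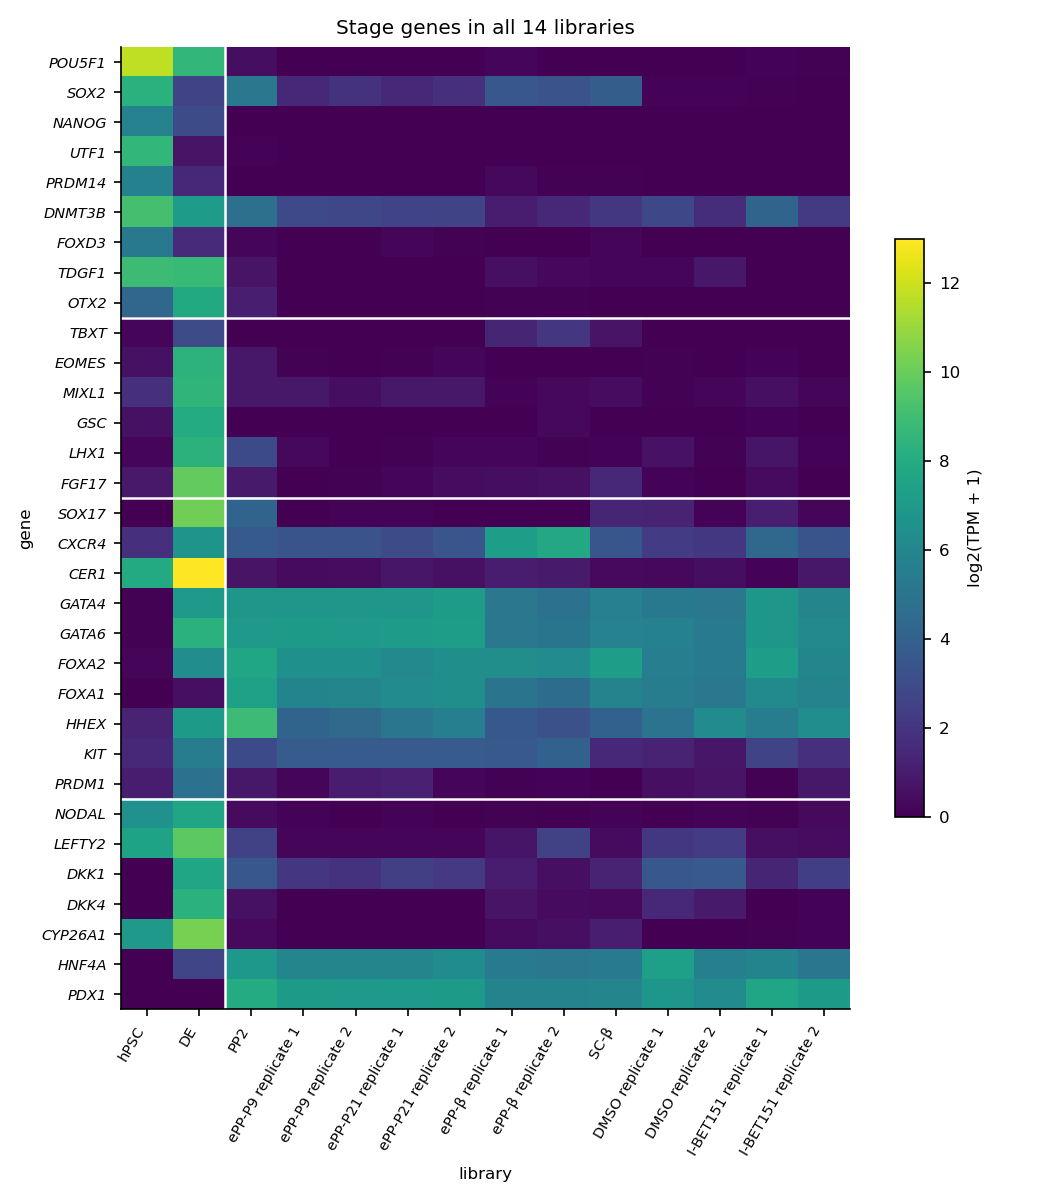
Level of 32 genes (rows) in all 14 libraries (columns), as log2(TPM + 1) on the colour scale. Horizontal lines separate pluripotency genes, mesendoderm genes, definitive endoderm genes, and signalling and later genes; the vertical line separates hPSC and DE from the other libraries, of which PP2 and SC-β share their batch. EOMES, MIXL1, GSC, FGF17 and CER1 are bright in the DE column and dark to the right of it, whereas GATA4, GATA6 and FOXA2 stay bright.

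The pathway that activin A stimulates was examined from its ligands to its inhibitors. Of 22 listed genes of Nodal and activin signalling 20 passed the filter, 4 were higher in DE and none was lower, with a median difference of 0.49. The ligand NODAL was at 93.6 TPM in hPSC and 200.4 TPM in DE. The genes of the activin subunits, INHBA and INHBB, were under 1 TPM in both libraries. The type I and II receptors ACVR1B, ACVR2A, ACVR2B and TGFBR1 were each above their hPSC level by between 0.40 and 1.22 on the log2 scale, and SMAD2 by 1.12, whereas SMAD3 was at 22.8 TPM in hPSC and 8.65 TPM in DE.

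Inhibitors were among the genes of the pathway that rose. LEFTY2, a secreted feedback inhibitor of Nodal, was at 179.7 TPM in hPSC and 835 TPM in DE, and its neighbour LEFTY1 was at 474 TPM in hPSC and 997 TPM in DE. The 2 LEFTY genes are near-identical, so the split of reads between them is uncertain. FST (follistatin), which binds activin, was at 12.3 TPM in hPSC and 75.8 TPM in DE, and CER1 has been given above. NODAL, LEFTY1, LEFTY2 and CER1 had between 0.284 and 6.9 TPM in PP2.

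The WNT genes past the thresholds were inhibitors, targets and a receptor, with no ligand among them. Of 31 listed genes 27 passed the filter, 8 were higher in DE and 1 was lower, with a median difference of 0.68. DKK1 (ENSG00000107984, chr10:52314281-52318042, plus strand), a secreted inhibitor that blocks the co-receptors LRP5 and LRP6, was at 0.018 TPM in hPSC and 207 TPM in DE. DKK4 (ENSG00000104371, chr8:42374063-42377229, minus strand) went from a listed 0 to 316 TPM. LRP5 itself was at 55.7 TPM in hPSC and 35.1 TPM in DE, and LRP6 at 10.7 TPM in hPSC and 9.52 TPM in DE.

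The secreted frizzled-related proteins, which bind WNT ligands, did not move as a family. SFRP1 was at 19.5 TPM in hPSC and 112 TPM in DE and FRZB (SFRP3) at 1.26 TPM in hPSC and 13.8 TPM in DE, whereas SFRP2 was at 267 TPM in hPSC and 9.86 TPM in DE, a difference of −4.63. NOTUM, an enzyme that inactivates WNT ligands, was at 1.68 TPM in hPSC and 12.2 TPM in DE. Among the receptors, FZD8 was at 12.2 TPM in hPSC and 162 TPM in DE, FZD5 at 34.5 TPM in hPSC and 131 TPM in DE and FZD7 at 155 TPM in hPSC and 179.9 TPM in DE. FZD8 was the receptor counted as higher, while FZD7 was abundant in both.

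The WNT target LGR5 was at 0.0187 TPM in hPSC and 13.3 TPM in DE, and SP5 has been given above. AXIN2, a widely used readout of WNT activity, was at 10.6 TPM in hPSC and 23 TPM in DE, and NKD1 was at 0.483 TPM in hPSC and 5.06 TPM in DE, past 4-fold and under 10 TPM. RNF43 and ZNRF3, which remove frizzled receptors from the surface, were at 1.43 and 6.42 TPM in DE against 4.04 and 10.1 TPM in hPSC. The targets thus differed among themselves in size and in direction.

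In BMP signalling a ligand rose and the target ID1 fell. Of 21 listed genes 20 passed the filter, 2 were higher in DE and 1 was lower, with a median difference of −0.05. BMP2 (ENSG00000125845, chr20:6767686-6780246, plus strand) was at 1.3 TPM in hPSC and 109.8 TPM in DE, while BMP4 was at 43 TPM in hPSC and 50.5 TPM in DE and BMP7 at 36.3 TPM in hPSC and 31.7 TPM in DE. MSX1, a homeobox target of BMP, was at 0.259 TPM in hPSC and 15.4 TPM in DE. ID1, a direct target of BMP, was at 399 TPM in hPSC and 88.6 TPM in DE, and ID2, ID3 and ID4 were at 9.48, 122 and 3.84 TPM in DE against 13.9, 192 and 13.5 TPM in hPSC. All 4 ID genes had more TPM in PP2 than in either library, with 870.3 TPM for ID1 and 1118 TPM for ID3.

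FGF ligands changed places. Of 21 listed genes of FGF and EGF signalling 20 passed the filter, 3 were higher in DE and 4 were lower, with a median difference of −1.01. FGF2, the factor that hPSC medium supplies, was at 33.2 TPM in hPSC and 5.52 TPM in DE, FGF4 at 6.46 TPM in hPSC and 1.4 TPM in DE and FGF19 at 24.6 TPM in hPSC and 2.06 TPM in DE. FGF17 and FGF8 were the ligands that rose. The receptors FGFR1 to FGFR4 differed by less than 0.8 on the log2 scale. ERBB3, the receptor of heregulin, was at 22 TPM in hPSC and 3.69 TPM in DE.

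The feedback genes of the pathway were not uniform. DUSP4, a phosphatase of ERK, was at 1.33 TPM in hPSC and 46 TPM in DE, whereas DUSP6 was at 32.9 TPM in hPSC and 17 TPM in DE and SPRY1 at 16.5 TPM in hPSC and 2.83 TPM in DE. ETV4, a transcription factor downstream of FGF, was at 252 TPM in hPSC and 71.8 TPM in DE.

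Genes that handle retinoic acid moved in both directions. CYP26A1 (ENSG00000095596, chr10:93073475-93077885, plus strand), the enzyme that clears retinoic acid, was at 122 TPM in hPSC and 1246 TPM in DE and at 0.253 TPM in PP2. DHRS3, which also lowers retinoic acid by reducing retinal, was at 22.2 TPM in hPSC and 1.49 TPM in DE, and CRABP1, a binding protein, was at 187 TPM in hPSC and 39.1 TPM in DE. Of 14 listed genes 11 passed the filter, and these 3 were the ones past the thresholds. ALDH1A2, a retinoic acid synthesising enzyme, was under 1 TPM in both libraries. ALDH1A3, another such enzyme, was at 14 TPM in hPSC and 35.1 TPM in DE, short of 4-fold. ALDH1A1 was at 2.34 TPM in hPSC and listed at 0 in DE.

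**Figure D4:**
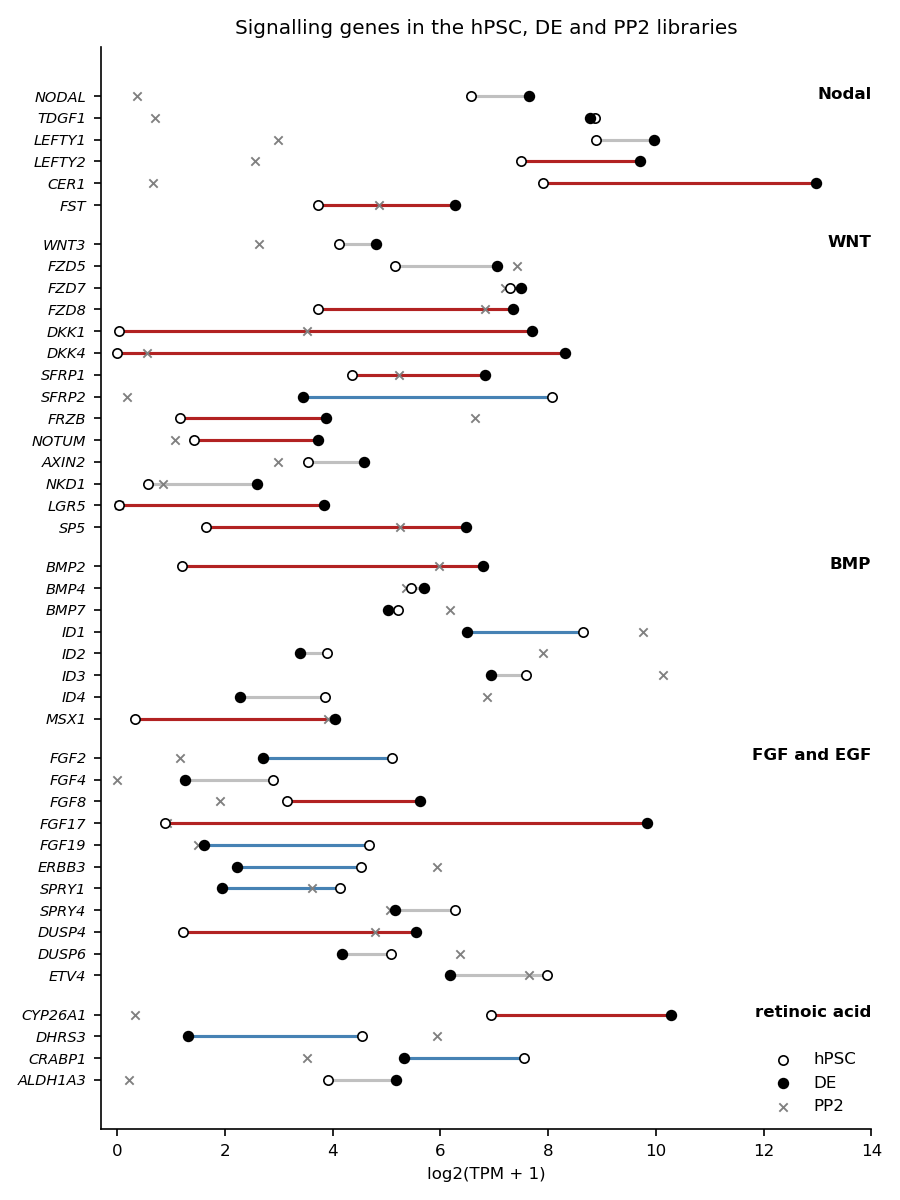
Levels of signalling genes in hPSC (open circles), DE (filled circles) and PP2 (grey crosses), as log2(TPM + 1) on the horizontal axis, grouped by pathway. Red lines join genes higher in DE, blue lines genes lower in DE and grey lines genes counted as neither. CER1, DKK1, DKK4, BMP2 and FGF17 have long red lines, and SFRP2, ID1, FGF2 and FGF19 have blue ones.

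Cell adhesion genes showed an exchange of cadherins. CDH1 (E-cadherin; ENSG00000039068, chr16:68737292-68835537, plus strand), the adhesion protein of epithelia, was at 155 TPM in hPSC and 9.81 TPM in DE, and CDH2 (N-cadherin; ENSG00000170558, chr18:27932879-28177946, minus strand) was at 44.7 TPM in hPSC and 192 TPM in DE. Their differences were −3.85 and 2.08, in opposite directions, and CDH1 was back at 156 TPM in PP2. CDH3 was at 97 TPM in hPSC and 17.7 TPM in DE. Among tight junction genes, CLDN4 was at 41.1 TPM in hPSC and 0.935 TPM in DE and CLDN3 at 40.2 TPM in hPSC and 7.88 TPM in DE. ITGA6, the laminin receptor subunit, was at 55.5 TPM in hPSC and 5.43 TPM in DE.

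Of the transcription factors of epithelial-mesenchymal transition, SNAI1 was at 6.78 TPM in hPSC and 22.5 TPM in DE, and SNAI2, ZEB1 and ZEB2 were under 1 TPM in both libraries. VIM was at 469.5 TPM in hPSC and 675 TPM in DE, and ESRP1, a splicing factor of epithelia, was at 74.4 TPM in hPSC and 37.6 TPM in DE. In all, 20 of the 23 listed adhesion genes passed the filter, 1 was higher and 5 were lower, with a median of −0.63.

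Among 23 of 25 extracellular matrix genes that passed the filter, 2 (8.70%) were higher in DE and 1 (4.35%) was lower, beside 1.73% and 2.82% of all genes. HAS2 (ENSG00000170961, chr8:121612116-121641440, minus strand), which makes hyaluronan, was at 3.41 TPM in hPSC and 169 TPM in DE, and the collagen gene COL5A2 was at 19.2 TPM in hPSC and 226 TPM in DE. LAMB3, a laminin chain, was at 3.84 TPM in hPSC and 0.0723 TPM in DE, under 10 TPM. FN1 was at 31.7 TPM in hPSC and 49.7 TPM in DE, far under its 3115 TPM in PP2.

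Cholesterol synthesis was level between the libraries, and most cell cycle genes stood somewhat lower in DE without passing the thresholds. None of the 21 cholesterol synthesis genes was counted as higher or lower, with a median of 0.04. No S phase gene of 43 and no G2/M gene of 54 was so counted, and the medians were −0.49 and −0.41, with 36 and 45 of the genes below 0. MKI67, the proliferation marker, was at 12 TPM in hPSC and 19 TPM in DE, and PCNA was at 256 TPM in hPSC and 113 TPM in DE. Both libraries thus held the transcripts of dividing cells.

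Of 21 glycolysis genes 3 (14.3%) were lower in DE and none was higher, beside 2.82% lower among all genes. The median was −0.02. HK1, a hexokinase, was at 198 TPM in hPSC and 37.7 TPM in DE, ENO2, the enolase of neurons, at 91.2 TPM in hPSC and 9.89 TPM in DE, and the glucose transporter SLC2A1 at 236 TPM in hPSC and 58 TPM in DE. The transporter SLC2A3 went from 363 TPM in hPSC to 740.0 TPM in DE, short of 4-fold, while ENO1 was at 1573 TPM in hPSC and 1562 TPM in DE and GAPDH at 4192 TPM in hPSC and 5178 TPM in DE. Of the DNA methylation genes, DNMT3B was the 1 of 6 counted as lower, and DNMT1, DNMT3A and TET1 differed by −0.78, −0.82 and −0.93.

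**Figure D5:**
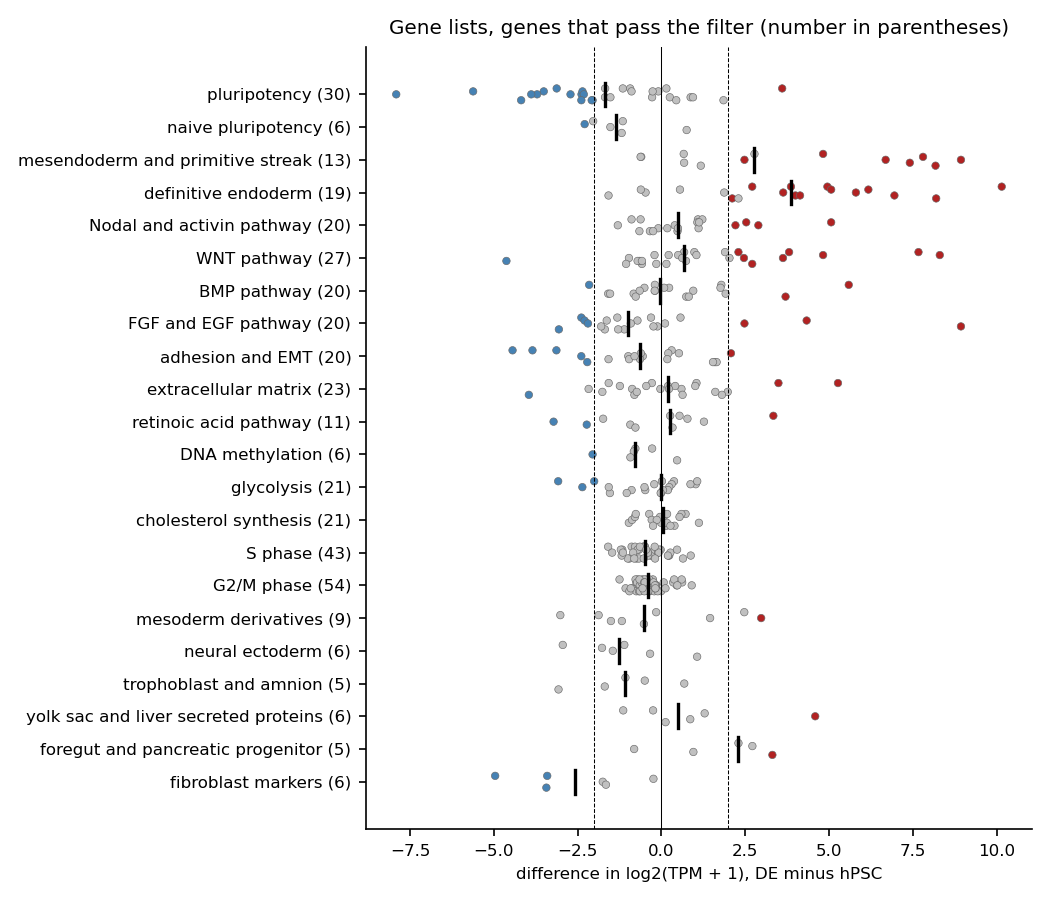
Difference in log2(TPM + 1), DE minus hPSC (horizontal), of each gene that passes the filter in 22 gene lists (rows). Red points are higher in DE, blue points lower and grey points counted as neither; black bars are list medians and dashed lines mark 4-fold. The medians run from −2.58 for fibroblast markers to 3.87 for definitive endoderm. The cholesterol median lies close to 0, and the S phase and G2/M medians lie below it at −0.49 and −0.41.

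Many listed genes of other lineages did not pass the filter and so could not be counted. With 4.55% of all genes counted as higher or lower, counts of 0 or 1 in such short lists say little. Of 18 genes of mesoderm derivatives 9 passed the filter and FOXC1 (1.03 TPM in hPSC and 15 TPM in DE) was the 1 counted as higher, whereas MEOX1 and HAND2 were listed at 0 in both libraries. HAND1 was at 0.134 TPM in hPSC and 5.29 TPM in DE. Of 14 neural ectoderm genes 6 passed the filter and none of these was counted as higher or lower. SOX3 was past 4-fold but under 10 TPM, with 7.14 TPM in hPSC and 0.0568 TPM in DE. PAX6 and SOX1 were under 1 TPM in both, while TUBB3, a tubulin, was at 347 TPM in hPSC and 728 TPM in DE. Of 11 trophoblast and amnion genes 5 passed the filter and none of these was counted either. GABRP, with 7.67 TPM in hPSC and 0.032 TPM in DE, was again past 4-fold but under 10 TPM.

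Genes of later endoderm spanned a wide range of levels. Of 15 secreted proteins of yolk sac and liver, APOA2 was the 1 counted as higher (0.661 TPM in hPSC and 39 TPM in DE), and it was at 838 TPM in PP2. The apolipoprotein genes APOE and APOC1 were abundant in both libraries, APOE at 1842 TPM in hPSC and 2007 TPM in DE and APOC1 at 154 TPM in hPSC and 281 TPM in DE. AFP was at 1.25 TPM in hPSC and 0.02 TPM in DE, and TTR and SERPINA1 were listed at 0 in both. Among 14 foregut and pancreatic genes MNX1 was counted as higher (0.125 TPM in hPSC and 10.2 TPM in DE), and HNF4A was at 0.00655 TPM in hPSC and 5.6 TPM in DE. PDX1, the factor that marks the pancreas, and PTF1A were listed at 0 in both libraries.

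Some fibroblast markers were higher in hPSC, the library from cells kept with feeders. The summed level of the 10 listed genes was 880.4 TPM in hPSC and 76.3 TPM in DE, 6 passed the filter, and 3 were lower in DE. THY1, which embryonic stem cells also carry, was at 342 TPM in hPSC and 10 TPM in DE, TAGLN at 311 TPM in hPSC and 27.9 TPM in DE and COL1A1 at 195 TPM in hPSC and 17.5 TPM in DE. All 6 were below their hPSC level, but COL1A2 was nearly level, at 21.8 TPM in hPSC and 18.3 TPM in DE. Of the defining markers, COL3A1 was at 0.0111 TPM in hPSC, and DCN and LUM were listed at 0 there, which may be failed estimates. The part of the feeder cells in the genes lower in DE was not tested.

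Outside the lists, further genes had wide differences. Among protein-coding genes higher in DE, ACKR3, a scavenging receptor for the chemokine CXCL12, was at 1.28 TPM in hPSC and 127 TPM in DE. CXCL12 itself was at 39.2 TPM in hPSC and 0.273 TPM in DE, so 2 receptors of this ligand rose while the ligand fell. CCKBR, the gastrin and cholecystokinin receptor, was at 3.42 TPM in hPSC and 225 TPM in DE, and RHOBTB3, an atypical GTPase, was at 6.57 TPM in hPSC and 339 TPM in DE. ELOVL2, an elongase of polyunsaturated fatty acids, was at 0.549 TPM in hPSC and 85.9 TPM in DE, and COLEC12, a scavenger receptor, was at 2.04 TPM in hPSC and 158 TPM in DE.

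STC1, a secreted glycoprotein, was at 1.57 TPM in hPSC and 96.1 TPM in DE. The semaphorin receptor PLXNA2 was at 0.451 TPM in hPSC and 65.8 TPM in DE, and FREM1, a basement membrane protein, was at 0.525 TPM in hPSC and 54 TPM in DE. EPSTI1 was at 0.177 TPM in hPSC and 58.8 TPM in DE and FAM89A at 1.35 TPM in hPSC and 102 TPM in DE. GYPB, a glycophorin of red cells, was at 65.2 TPM in DE and listed at 0 both in hPSC and in every library of the other batches. GYPB belongs to a family of near-identical genes, so its identity is uncertain.

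Among protein-coding genes lower in DE, VGF, a neuropeptide precursor, was at 575 TPM in hPSC and 2.85 TPM in DE, a difference of −7.22. SPP1 (osteopontin) was at 916 TPM in hPSC and 9.05 TPM in DE, but SPP1 also differed by up to 3.45 on the log2 scale between 2 libraries of another group. HES3, a HES family repressor, was at 81.1 TPM in hPSC and listed at 0 in DE. OLFML3 was at 270.3 TPM in hPSC and 3.27 TPM in DE, GNA14, a G protein subunit, at 67.9 TPM in hPSC and 0.663 TPM in DE, and ACTC1, the cardiac actin, at 46.2 TPM in hPSC and 0.226 TPM in DE.

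The receptor NGFR was at 41.6 TPM in hPSC and 0.233 TPM in DE, the protease MMP9 at 63.8 TPM in hPSC and 0.898 TPM in DE and the chemokine CXCL5 at 38.7 TPM in hPSC and 0.26 TPM in DE. VAT1L, FAM131B, WSCD1, NEURL1 and CNMD were each between 30 and 50 TPM in hPSC and under 1 TPM in DE. TRIM22 was at 75.2 TPM in hPSC and 1.49 TPM in DE, and SEMA6A, a transmembrane semaphorin, was at 221 TPM in hPSC and 7.3 TPM in DE. NGFR, CXCL12 and NEURL1 had 81.2, 67.1 and 55.5 TPM in PP2, above their hPSC levels, so they were low in DE between 2 higher stages.

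Long noncoding RNAs marked both stages. ESRG, which is known from embryonic stem cells, was at 392 TPM in hPSC and 15.5 TPM in DE, and LNCPRESS1 was at 45.5 TPM in hPSC and 0.496 TPM in DE. FOXD3-AS1 was at 254 TPM in hPSC and 6.62 TPM in DE and SFTA1P was at 29 TPM in hPSC and listed at 0 in DE. LINC00458, also known from embryonic stem cells, was at 91.9 TPM in hPSC and 201 TPM in DE. Thus the stem cell noncoding RNAs did not fall as a group.

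In DE, LINC00261, the neighbour of FOXA2, was at 13.6 TPM and listed at 0 in hPSC. GATA6-AS1 was at 0.0269 TPM in hPSC and 268 TPM in DE, LHX1-DT at 0.0243 TPM in hPSC and 27.4 TPM in DE and LINC00467 at 2.6 TPM in hPSC and 119 TPM in DE. LINC00479 and LINC02247 rose from a listed 0 to 57.5 and 21.4 TPM. MAP3K4-AS1 was at 4.58 TPM in hPSC and 137 TPM in DE. The use of strand in the counting is not given in the sources used here, so reads of an antisense RNA and its partner, such as GATA6-AS1 and GATA6 or FOXD3-AS1 and FOXD3, cannot be told apart. MALAT1, GAS5 and TUG1 differed by less than 0.4 on the log2 scale.

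The genes that were higher in DE had different levels in the next library of the batch. In PP2, 151 of the 308 genes (49.0%) had 10 TPM or more and 71 (23.1%) had under 1 TPM. Over all 8753 genes with at least 10 TPM in DE, those shares were 91.3% and 1.54%. The 308 genes were chosen for a high level in the 1 DE library against hPSC, which by itself favours lower levels elsewhere. The 8753 genes were not chosen for a difference, so the shares are not like for like. GATA4 (117 TPM), GATA6 (128 TPM), FOXA2 (201 TPM) and HHEX (476 TPM) were among the genes that stayed, and EOMES (0.772 TPM), MIXL1 (0.808 TPM) and PRDM1 (0.799 TPM) were among those under 1 TPM. SOX17 was still above 10 TPM, at 17.3.

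Of the 502 genes that were lower in DE, 225 (44.8%) had 10 TPM or more in PP2 and 115 (22.9%) had under 1 TPM, beside 89.4% and 1.97% of the 9030 genes with at least 10 TPM in hPSC. SOX2 returned to 35.1 TPM, CDH1 to 156 TPM, ID1 to 870.3 TPM and ERBB3 to 60.2 TPM. POU5F1, NANOG, UTF1, FOXD3 and ESRG had under 1 TPM. In these single libraries some genes that were low in DE were thus higher again in PP2 and others were not. The 502 genes were chosen for a low level in the 1 DE library, which by itself favours higher levels in PP2, and the 9030 genes were not. The part of this choice in the shares was not tested.

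A gene was called peaked in a library when its TPM + 1 there was at least 4 times that of each of the other 13 libraries and it had at least 10 TPM. By this measure 90 genes peaked in DE and 131 in hPSC, which by construction are subsets of the 308 higher and the 502 lower genes (29.2% and 26.1%). Of the other groups with 1 library, PP2 had 58 peaked genes and SC-β 120, while each library of a replicated group had between 0 and 12, since its replicate must also be 4-fold lower. The 15 DE peaks with the widest margin were FGF17, EOMES, GSC, DKK4, MIXL1, ENSG00000286467, GYPB, SOX17, LHX1, CER1, CCDC81, LINC02247, GRP, SHISAL2B and NMU. Among those not yet described, NMU, the peptide neuromedin U, was at 20.1 TPM in hPSC and 382 TPM in DE, and SHISAL2B was at 11.5 TPM in hPSC and 227 TPM in DE. CCDC81 was at 0.185 TPM in hPSC and 38.5 TPM in DE, and GRP, the gastrin-releasing peptide, was at 27.3 TPM and listed at 0 in hPSC. In hPSC the widest margin was that of UTF1, whose level was 241 times the next highest on the TPM + 1 scale. Since the other libraries are later pancreatic stages, a peak says that a gene was high at 1 stage of this series and not that it is particular to DE in general.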

How the data were processed

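Total RNA of the 14 libraries was sequenced as paired ends. The authors aligned reads to GRCh38 with HISAT2 2.1.0, assembled transcripts with StringTie and deposited TPM per gene identifier. Annotation release and use of strand are not given in the sources used here. TPM hold no read counts, so count tests and counting intervals could not be used. Libraries were grouped by title. Of 60624 identifiers 60370 matched GENCODE 44, which supplied symbols and positions. Genes with 1 TPM or more in either library were kept, and the difference in log2(TPM + 1), DE minus hPSC, was computed in Python 3.11.15 with pandas 2.3.3 and tested on simulated data. With 1 library per group there was no test.

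The members and gene lists were chosen with earlier results of these data known. Named genes were the 25 protein-coding genes and 8 long noncoding RNAs with the largest difference per direction, the 15 widest peaks in DE and members of the lists, of which not all are printed and some are not reported here. Chromosome Y genes, XIST, pseudogenes and nuclear copies of mitochondrial genes were not named. The motif shares among called genes are void, since 187 of 308 higher and 305 of 501 lower symbols matched a RefSeq promoter. Alternatives changed the pseudocount, filter, scaling, gene set and thresholds.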

Additional observations from a re-analysis of the deposited data

How the results depend on the processing

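All 308 higher genes passed under each of the other scalings, and of the 502 lower genes 499 passed with every library rescaled to the same sum, 477 with median centring and 459 with quantile normalization. The thresholds set the counts: 2-fold gave 940 higher and 1340 lower genes, 8-fold 171 and 227, 20 TPM in the higher library 202 and 327, and 1 TPM there 475 and 802. Pearson's r was 0.789 with a pseudocount of 0.1, 0.720 with 0.01, 0.951 with no filter and 0.792 with a filter of 5 TPM. The median difference of all genes was 0.047 with quantile normalization. None of 1172 values of the 149 named genes past the thresholds turned its direction. Genes chosen for a 4-fold difference could hardly turn under these settings, so this is no check of them. Of the values, 311 moved by more than the spread, 216 of them under another pseudocount. That spread was borrowed from replicate pairs of other batches. Of 231 list medians 2 changed sign: glycolysis to 0.02 with median centring and BMP to 0.04 with quantile normalization. The list of long noncoding RNAs was left out of the setting with protein-coding genes only. No paired analysis was possible because hPSC and DE have 1 library each, and for the same reason no library could be left out. The unknown depth limits what can be said of genes near 0.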

Other observations

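Gene families outside the lists above also stood lower in DE, and they were chosen after their values were seen. Of the metallothionein genes, whose proteins bind zinc and copper, 8 passed the filter and 7 were lower in DE, with a median difference of −4.34. MT2A was at 372 TPM in hPSC and 13.3 TPM in DE, MT1X at 154 TPM in hPSC and 7.38 TPM in DE and MT1G at 145 TPM in hPSC and 1.46 TPM in DE. These genes are near-identical to each other, so the split between them is uncertain, and their summed level was 868 TPM in hPSC and 30.3 TPM in DE. MT2A also differed by up to 2.75 on the log2 scale between libraries of another group.

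Of 12 genes of MHC class I and peptide loading 3 were lower in DE. The immunoproteasome subunits PSMB8 and PSMB9 were at 59.8 TPM in hPSC and 1.76 TPM in DE and at 12.8 TPM in hPSC and 0.0307 TPM in DE, in that order, and the peptide transporter TAP2 was at 10.9 TPM in hPSC and 1.58 TPM in DE. B2M was at 86.6 TPM in hPSC and 111 TPM in DE. Of 15 genes of the actin cytoskeleton and of YAP or SRF targets 8 were lower and none was higher. CCN1 was at 205 TPM in hPSC and 7.15 TPM in DE, CCN2 at 167 TPM in hPSC and 8.37 TPM in DE and CAV1 at 58.7 TPM in hPSC and 6.45 TPM in DE, while ANKRD1, another YAP target, was at 2.76 TPM in hPSC and 1.73 TPM in DE. Fibroblast markers and culture format moved with these genes, and their part in the result was not tested.

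Of the HOX genes 4 passed the filter and none was counted as higher or lower. HOXB2 was at 4.26 TPM in hPSC and 6.41 TPM in DE, and HOXB3 was at 0.16 TPM in hPSC and 2.45 TPM in DE. HOXB4 reached 1.02 TPM in DE from a listed 0, whereas HOXB1 was at 3.13 TPM in hPSC and listed at 0 in DE. Of 85 ribosomal protein genes that passed the filter 3 (3.53%) were lower, near the 2.82% of all genes. They were RPL18, RPL28 and RPL39L. RPL39L, a copy of RPL39 known from germ cells, was at 104 TPM in hPSC and 3.5 TPM in DE. The summed level of the listed ribosomal protein genes was 194597 TPM in hPSC and 199000 TPM in DE. Their median difference was 0.04.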
